A study of Mus musculus with 18 samples.

Results

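The Cyp2d genes form a cluster of cytochrome P450 enzymes on mouse chromosome 15, and 7 of them were followed here in liver: Cyp2d9, Cyp2d10, Cyp2d11, Cyp2d12, Cyp2d22, Cyp2d26 and Cyp2d40. The members were chosen by symbol, and are 7 of the 19 annotated genes and pseudogenes named Cyp2d and of 52230 genes in all. RNA-sequencing libraries came from 18 livers, 1 library per mouse, of a single Gckr knock-in line on standard chow. Gckr codes for glucokinase regulatory protein, and PP mice carried the Gckr-446P form (wild-type, proline) while LL mice carried Gckr-446L (leucine) in every tissue. The groups were male PP (n = 4, aged 9 to 14 wk), male LL (n = 4, 13 to 14 wk), female PP (n = 5, 9 to 14 wk) and female LL (n = 5, 11 to 14 wk), and no other allele or agent was named for any group.

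Cytochrome P450 enzymes sit in the membrane of the endoplasmic reticulum and insert an oxygen atom into drugs, steroids and fatty acids, with electrons passed to them by the reductase Por. The Cyp2d subfamily is known for drug metabolism, and the many mouse genes stand beside a single functional human counterpart, CYP2D6. Liver P450 genes in mice are a classical case of sex-biased expression, set largely by the pattern of growth hormone secretion, and Cyp2d9, a male-predominant testosterone hydroxylase, is among the best known of these.

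In the GRCm39 annotation the members lie between the left end of Cyp2d22 at chr15:82254727-82264597 and the right end of Cyp2d26 at chr15:82674300-82678509. Next to Cyp2d22 on the minus strand are Cyp2d11 (chr15:82273355-82278223) and Cyp2d10 (chr15:82284102-82291404). Cyp2d9 (chr15:82317638-82341046) and Cyp2d12 (chr15:82439246-82444604) are on the plus strand, and Cyp2d40 (chr15:82644031-82649336) is beside Cyp2d26 on the minus strand. All 7 are annotated as protein-coding. Values are sums over the transcripts of a gene that the deposited files list, such as 6 of the 43 now annotated for Cyp2d10 and 9 of 28 for Cyp2d9. In the 5 members expressed above a few counts, the first-numbered transcript held most counts over all 18 libraries together, from 77.1% for Cyp2d10 to 95.0% for Cyp2d26. Among these 5, the lowest group mean was 71.3 ± 23.5% (SD), for Cyp2d9 in male LL.

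The 125 bases before the RefSeq start of 5 members are shown because the genes stand close together and differ widely in their sex difference. They were taken from RefSeq promoters of build GRCm38.p6, where 5 of 7 members matched, and Cyp2d12 and Cyp2d22 did not. A RefSeq start need not be the end of the gene in the GRCm39 annotation above, and can lie inside those bounds. Capitals mark 3 motifs, each searched on both strands, and no marked stretches overlap. CAAAGNNCA is of the kind bound by Hnf4a, a nuclear receptor of liver. TATAAG is a TATA-like element. CCGGAA is the core of sites of the Ets family, to which Gabpa belongs.
Cyp2d9, plus strand, chr15:82452252-82452376: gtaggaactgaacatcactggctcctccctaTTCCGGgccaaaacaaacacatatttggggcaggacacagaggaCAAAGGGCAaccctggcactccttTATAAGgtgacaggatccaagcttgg
Cyp2d10, minus strand, chr15:82407195-82407319: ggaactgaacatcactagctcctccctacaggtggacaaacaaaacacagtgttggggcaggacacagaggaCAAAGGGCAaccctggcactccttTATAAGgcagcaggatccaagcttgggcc
Cyp2d11, minus strand, chr15:82394023-82394147: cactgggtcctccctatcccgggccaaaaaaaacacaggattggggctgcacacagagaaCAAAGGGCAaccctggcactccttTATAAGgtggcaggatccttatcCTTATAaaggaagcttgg
Cyp2d26, minus strand, chr15:82794246-82794370: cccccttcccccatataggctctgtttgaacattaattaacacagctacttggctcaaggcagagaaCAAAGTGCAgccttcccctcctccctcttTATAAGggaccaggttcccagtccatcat
Cyp2d40, minus strand, chr15:82764123-82764247: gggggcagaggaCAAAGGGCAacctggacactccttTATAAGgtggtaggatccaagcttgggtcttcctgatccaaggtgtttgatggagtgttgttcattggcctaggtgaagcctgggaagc

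All 5 windows held CAAAGNNCA followed by TATAAG. Both motifs, in any order and on either strand, were in 0.0852% of the 32851 RefSeq windows of the same length. The 5 windows belong to related genes and are not separate cases. Those of Cyp2d9, Cyp2d10 and Cyp2d11 hold the same letters from the first motif to the second. Singly, CAAAGNNCA was in 2.65% and TATAAG in 3.53% of all windows. Among the 5, CCGGAA was found in the Cyp2d9 window, on the opposite strand (read as TTCCGG above), 94 to 89 bases before the start, and 8.31% of all windows held it. The growth hormone responsive Stat5 letters TTCNNNGAA were in none of the 5 windows and in 3.32% of all. A match of letters is a description and not a binding site.

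The coding sequences were close in letters, which bears on how reads are shared between the genes. Those compared were of the first-numbered transcript of each gene. Cyp2d9, Cyp2d10, Cyp2d11 and Cyp2d12 each had a coding length of 1512 bases, Cyp2d22 and Cyp2d26 of 1500.0 and Cyp2d40 of 1014. That Cyp2d40 transcript has 6 exons, while transcripts of the gene are annotated with up to 9. Identity between pairs of coding sequences ranged from 77.73% (Cyp2d22 and Cyp2d26) to 94.71% (Cyp2d10 and Cyp2d11). Of all 31-base words in its transcripts, Cyp2d10 shared 48.35% and Cyp2d11 56.35% with another Cyp2d gene, while Cyp2d9 shared 28.82%, Cyp2d40 31.14%, Cyp2d26 14.98%, Cyp2d12 14.23% and Cyp2d22 7.301%. By these shares the split of counts between Cyp2d10, Cyp2d11, Cyp2d9 and Cyp2d40 is the least certain, and that of Cyp2d22 the most certain. The shares also depend on the transcripts listed, which include retained introns, of up to 3862 bases for Cyp2d12 and 3398 for Cyp2d22. In coding sequence Cyp2d12 was 92.13% identical to Cyp2d9, and Cyp2d40 84.22%, so the split of Cyp2d12 is uncertain too.

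Libraries held between 3794671 and 6613905 estimated counts, and 10938 genes passed the filter of at least 10 counts in at least 4 libraries. The fragment length inferred from each library was 396 to 630 bases in male PP, 203 to 582 in male LL, 369 to 631 in female PP and 247 to 377 in female LL. Summed over the 7 hepatocyte markers, among them Alb and Ttr, normalized counts lay between 388092 and 827508, and the 4 cholangiocyte markers reached at most 10.8. Gckr itself did not differ between LL and PP (log2 fold change -0.12 ± 0.15 in males and -0.05 ± 0.13 in females), and counts per gene cannot show the amino acid change. A lower level of a liver gene in these bulk samples can be less RNA per cell or fewer such cells, which cannot be told apart.

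Cyp2d10 and Cyp2d26 were expressed at high levels in both sexes, Cyp2d9 mainly in males, Cyp2d22 and Cyp2d40 at lower levels, and Cyp2d11 and Cyp2d12 were at or near 0. Levels of different genes were compared in TPM, which are scaled per transcript length and to the same total in each library. In male PP livers the order of the level in TPM was Cyp2d9 (597 ± 169, SD, n = 4), Cyp2d10 (375 ± 84.3), Cyp2d26 (153 ± 38.0), Cyp2d22 (43.8 ± 21.2) and Cyp2d40 (26.5 ± 8.83). The first 3 neighbours in this order differed beyond their spread, in 4 of 4 mice each, while Cyp2d22 was above Cyp2d40 in 3 of 4.

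Male LL livers gave the same order, with 616 ± 151 TPM of Cyp2d9, 366 ± 120 of Cyp2d10, 203 ± 43.3 of Cyp2d26, 56.4 ± 13.1 of Cyp2d22 and 26.1 ± 13.5 of Cyp2d40. Here Cyp2d9 and Cyp2d10 were not separated beyond their spread, because Cyp2d9 was the higher in 3 of 4 mice. The TPM of a gene also depend on how its counts were split between transcripts of unlike length. For Cyp2d9 in male LL that split varied between mice, with 71.3 ± 23.5% of counts in the first-numbered transcript. Female PP livers had Cyp2d10 first (655 ± 231 TPM, n = 5), then Cyp2d26 (358 ± 117), Cyp2d22 (77.5 ± 18.9), Cyp2d9 (75.2 ± 49.2) and Cyp2d40 (24.3 ± 6.53). Cyp2d22 and Cyp2d9 did not differ beyond their spread in this group. For female LL the levels were 502 ± 60.02 TPM of Cyp2d10, 351 ± 87.6 of Cyp2d26, 76.6 ± 8.59 of Cyp2d22, 28.6 ± 5.28 of Cyp2d40 and 27.6 ± 8.52 of Cyp2d9, with the last pair not separated.

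Cyp2d11 held at most 3.92 estimated counts in any library and 0 in 4 of 5 female LL, 1 of 4 male LL and 2 of 4 male PP libraries. Cyp2d12 held at most 8.51 estimated counts. Neither passed the filter, so 5 of the 7 members were tested, and for these 2 genes a difference between groups was not detectable at this depth.

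To ask how sex acts on the cluster, female PP was compared with male PP by DESeq2, where calls took an adjusted p below 0.05 together with a ratio of 1.3 or more, or 0.7 or less. In the comparison of PP mice 2 of the 5 tested members were called, Cyp2d9 and Cyp2d40, both lower in females, beside 6.45% of all 10938 tested genes called, 3.68% higher and 2.77% lower. The median log2 fold change was -0.06 over the 5 members and 0.00 (-0.0016) over all genes. Normalized counts are estimated counts divided by the DESeq2 size factor of the library, and the values by mouse below are on that scale.

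Cyp2d9, the male-predominant testosterone hydroxylase, had 6026, 5132, 5938 and 7031 normalized counts in the 4 male PP livers. The 5 female PP livers had 969, 231, 639, 219 and 342. The groups did not overlap, and the highest female value was far below the lowest male one. The female PP level of Cyp2d9 was 12.6-fold lower (log2 fold change -3.65 ± 0.46, SE, adjusted p = 2.28e-13), and it was called in 30 of 30 alternative settings, with log2 fold changes from -4.07 to -3.18.

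Cyp2d40, whose first-numbered transcript has a shorter coding sequence, had 230.4, 202.5, 219 and 247.6 normalized counts in male PP. In female PP it had 123, 72.7, 136, 144 and 119. These groups did not overlap either. Cyp2d40 was lower in female PP (log2 fold change -0.92 ± 0.27, adjusted p = 0.0159), but the call was lost in 7 of 30 alternatives, among them edgeR (adjusted p = 0.0557) and leaving out male PP 4 (0.0662), female PP 2 (0.0668) or male PP 1 (0.0507). On the TPM scale its log2 fold change was -0.11 (adjusted p = 0.783 with limma).

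The 3 other tested members did not pass the DESeq2 test between PP sexes. The limma fit on log2(TPM + 1) called all 3 higher in female PP (log2 fold changes of 0.78 for Cyp2d10, 0.90 for Cyp2d22 and 1.20 for Cyp2d26). In that fit the median of all genes was shifted to the female side, at 0.50, and 4223 of all 10938 tested genes were called higher in female PP. Cyp2d10 had 3131, 2228, 2693 and 3203 normalized counts in male PP and 3312, 2648, 3083, 2946 and 2350.1 in female PP, which overlapped (log2 fold change 0.03, 95% interval -0.32 to 0.37). Cyp2d22, which is often treated as the mouse gene nearest in function to CYP2D6, had 771, 525, 734 and 761 in male PP against 640.4, 605, 627, 807 and 673 in female PP (-0.06, interval -0.36 to 0.24). Cyp2d26 had 2006, 1545, 1958 and 2305 in males and 2233, 2223, 2552, 2561 and 2474 in females, with a log2 fold change of 0.30 ± 0.17 (adjusted p = 0.342). Over all tested genes, 9.74% had normalized counts that did not overlap between these groups, and of the 5 tested members Cyp2d9 and Cyp2d40 did not.

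**Figure D1:**
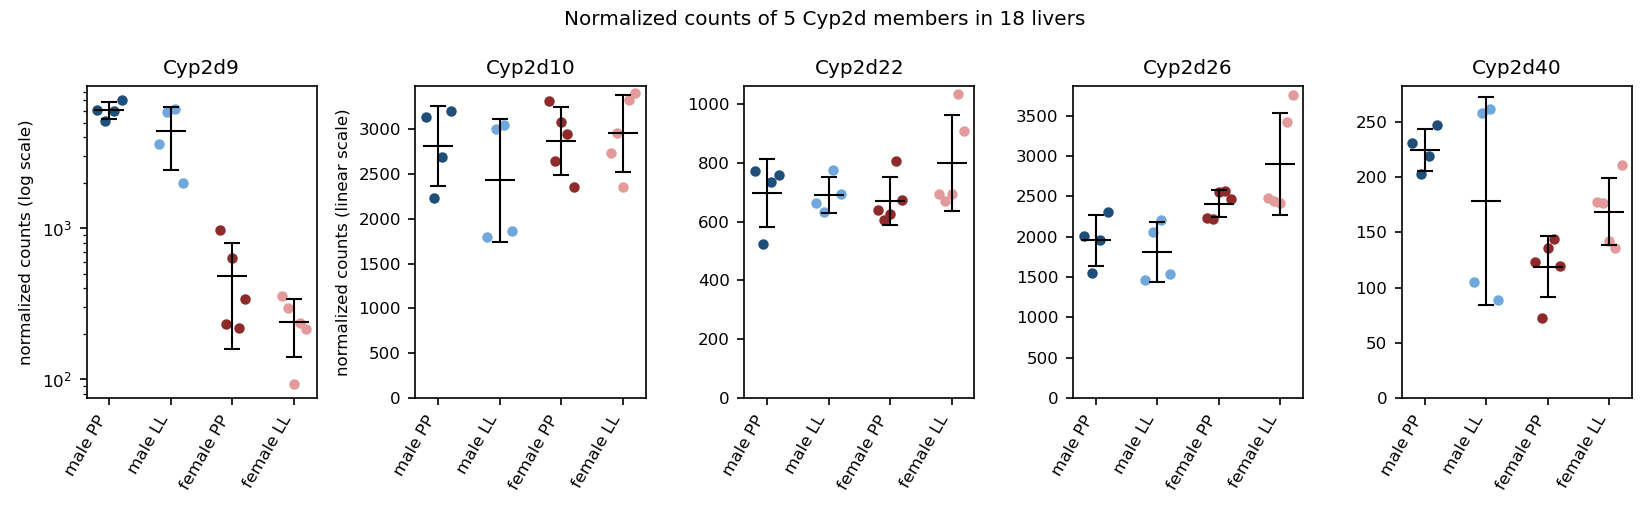
Normalized counts of the 5 tested members in each liver (points), with group mean and SD (bars), on a log axis for Cyp2d9 and linear axes from 0 for the others. For Cyp2d9 every female liver (94 to 969) lies below every male liver (1992 to 7031), while Cyp2d10 and Cyp2d22 overlap between all groups.

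Between LL mice the sex comparison again called 2 of the 5 tested members, Cyp2d9 lower and Cyp2d26 higher in females, beside 6.12% of all tested genes (3.33% higher and 2.79% lower). Male LL livers had 3585, 5869.7, 6127 and 1992 normalized counts of Cyp2d9, so that mice 1 and 4 were below the other two. Female LL livers had 356, 297, 93.5, 236 and 216, all below every male value. The difference was 18.3-fold (log2 fold change -4.20 ± 0.46, adjusted p = 2.20e-17), and it held in 30 of 30 alternatives.

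Cyp2d26 had 1458, 2054, 2204 and 1532 normalized counts in male LL. In female LL it had 2482, 2437, 2421, 3421 and 3753. The groups did not overlap, as in 8.16% of all tested genes, and female LL 4 and 5 stood above the other 3 females. Cyp2d26 was 1.60-fold higher in female LL (log2 fold change 0.68 ± 0.17, adjusted p = 0.00179), and the call was lost with an offset for transcript length (0.45, adjusted p = 0.326) and on log2(TPM + 1) (0.77, adjusted p = 0.0804).

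Cyp2d40 split the male LL livers into 105.0 and 88.6 normalized counts (mice 1 and 4) and 258 and 261 (mice 2 and 3). Female LL livers had 177.5, 177, 142, 136 and 211, within the male range. No difference was called in Cyp2d40 between LL sexes (log2 fold change -0.08 ± 0.27, adjusted p = 0.916). The change in its sex difference between genotypes, the interaction, was 0.84 ± 0.39 on the log2 scale with an unadjusted p of 0.0306 in the DESeq2 fit, which left its adjusted p empty, and without independent filtering the adjusted p was 0.794.

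For Cyp2d10 the female LL values were 2733, 2956, 2354, 3322 and 3399.8 normalized counts, against 1794, 3002, 3049 and 1868 in male LL. These overlapped (log2 fold change 0.28 ± 0.18, adjusted p = 0.378). Cyp2d22 had 693, 672, 693, 1037 and 909 in female LL and 664, 632, 775 and 695 in male LL, with a log2 fold change of 0.21 ± 0.15 (adjusted p = 0.466). In the interaction 0 of the 5 members were called by DESeq2 (0.119% of all tested genes) and 0 by edgeR (0 of all 10938 tested genes). In the DESeq2 fit 1 member, Cyp2d40, had an unadjusted p below 0.05.

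**Figure D2:**
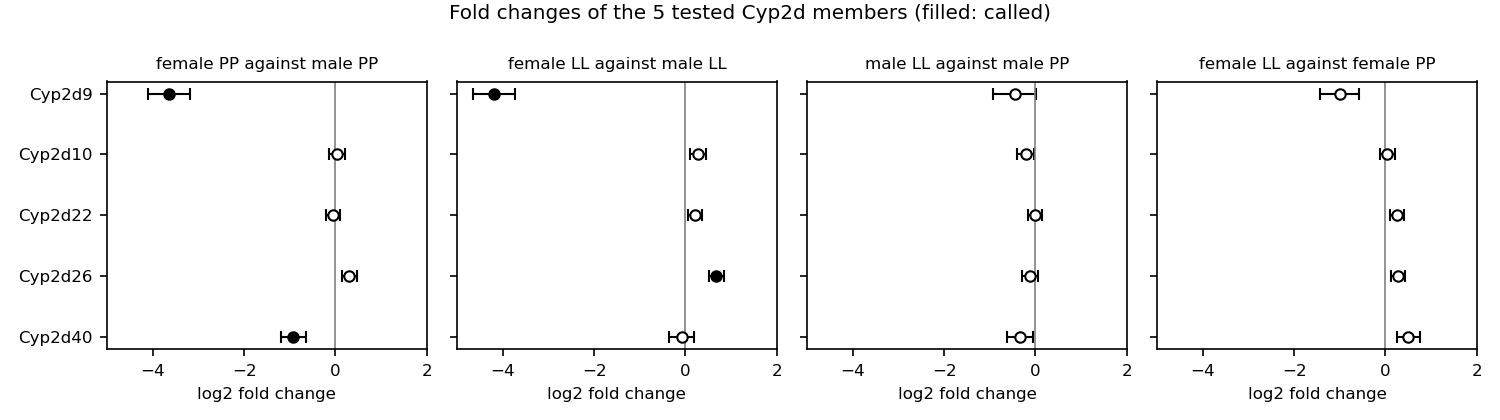
Log2 fold change (points) with SE (bars) of the 5 tested members in the 4 contrasts, filled where called. Cyp2d9 stands at -3.65 and -4.20 in the sex contrasts, and no member is filled in either genotype contrast.

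The genotype comparisons asked whether the knock-in altered the cluster within a sex. By DESeq2 0 of 5 tested members were called in male LL against male PP, where 0.283% of all tested genes were called. Of these members 0 had an unadjusted p below 0.05. With edgeR 0 of the 5 were called, beside 3 of all 10938 tested genes. Values by mouse are those given above. Log2 fold changes in males were -0.46 ± 0.48 for Cyp2d9 (95% interval -1.40 to 0.48), -0.21 ± 0.19 for Cyp2d10, -0.01 ± 0.16 for Cyp2d22, -0.11 ± 0.17 for Cyp2d26 and -0.33 ± 0.29 for Cyp2d40. Cyp2d9 changed sign, to 0.05, in 1 of 30 alternatives, the limma fit of TPM. Cyp2d22 kept its sign in 22 of 30 (highest value 0.45) and Cyp2d26 in 28 of 30 (highest value 0.42), while Cyp2d10 and Cyp2d40 kept theirs in 30 of 30. None of the 5 members had normalized counts that did not overlap between male genotypes, against 4.07% of all tested genes.

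The same 2 male LL mice were low in several members. Mice 1 and 4 had the 2 lowest male LL values of Cyp2d9, Cyp2d10, Cyp2d26 and Cyp2d40 but not of Cyp2d22. Their fragment lengths were 415 and 582 bases, against 203 and 427 in mice 2 and 3, and their summed pericentral hepatocyte markers (6 genes, none at 0 in all livers) were the highest (61799) and the lowest (29156) of the group. With fragment length as a term, 0 of 5 members were called in male LL against male PP. Their median log2 fold change was -0.31 in that fit and -0.21 in the reported one. The part of the other measures in the result was not tested.

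In female LL against female PP 0 of 5 members were called by DESeq2 and 0 by edgeR. DESeq2 called 0.658% of all tested genes there, and edgeR called 3 of 10938. Cyp2d9 alone had an unadjusted p below 0.05. Its log2 fold change was -1.002 ± 0.431 (adjusted p = 0.237). Its values overlapped between the groups, and the 2 highest of the 10 female livers were female PP 1 and 3. The adjusted p of this difference lay between 0.0881 and 0.699 over 30 alternatives. Cyp2d40 had a log2 fold change of 0.50 ± 0.26 (adjusted p = 0.340), Cyp2d26 of 0.27 ± 0.16, Cyp2d22 of 0.25 ± 0.14 and Cyp2d10 of 0.04 ± 0.17, so that 4 of 5 were above 0 with none called. This number fell to 3 with the transcript length offset or fragment length as a term and to 2 in the limma fit of TPM. Between female genotypes 0 of the 5 had normalized counts that did not overlap, against 2.66% of all tested genes.

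The make-up of the cluster was described as the percentage of the summed TPM of all 7 members in each liver, a ratio within a library that does not depend on how libraries are scaled. Cyp2d9 made up 45.1, 52.5, 47.3 and 53.9% in male PP and 55.2, 47.4, 54.0 and 37.5% in male LL. Female PP livers had 10.7, 3.27, 7.53, 3.57 and 5.14%, and female LL livers 4.69, 3.23, 1.53, 2.67 and 2.27%. Male and female shares did not overlap in either genotype. Cyp2d10 made up 31.7 ± 5.75% (SD) of the sum in male PP and 54.6 ± 3.17% in female PP, and 29.0 ± 9.32% in male LL and 51.1 ± 5.48% in female LL.

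The Cyp2d26 share was 12.8 ± 1.07% in male PP and 30.1 ± 3.01% in female PP, and 16.0 ± 1.51% in male LL and 35.3 ± 5.61% in female LL, with no overlap between sexes. In each sex the Cyp2d26 share overlapped between genotypes. Cyp2d22 made up 3.51 ± 0.942% in male PP, 4.46 ± 0.855% in male LL, 7.13 ± 2.75% in female PP and 7.80 ± 0.742% in female LL. Cyp2d40 stayed between 0.937 and 3.47% in all 18 livers. A share rises when another falls, so these shares show unequal change among members and not that Cyp2d10 or Cyp2d26 increased. The level of Cyp2d9 over that of Cyp2d10 in TPM had a median of 1.59 in male PP, 2.03 in male LL, 0.103 in female PP and 0.0566 in female LL.

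**Figure D3:**
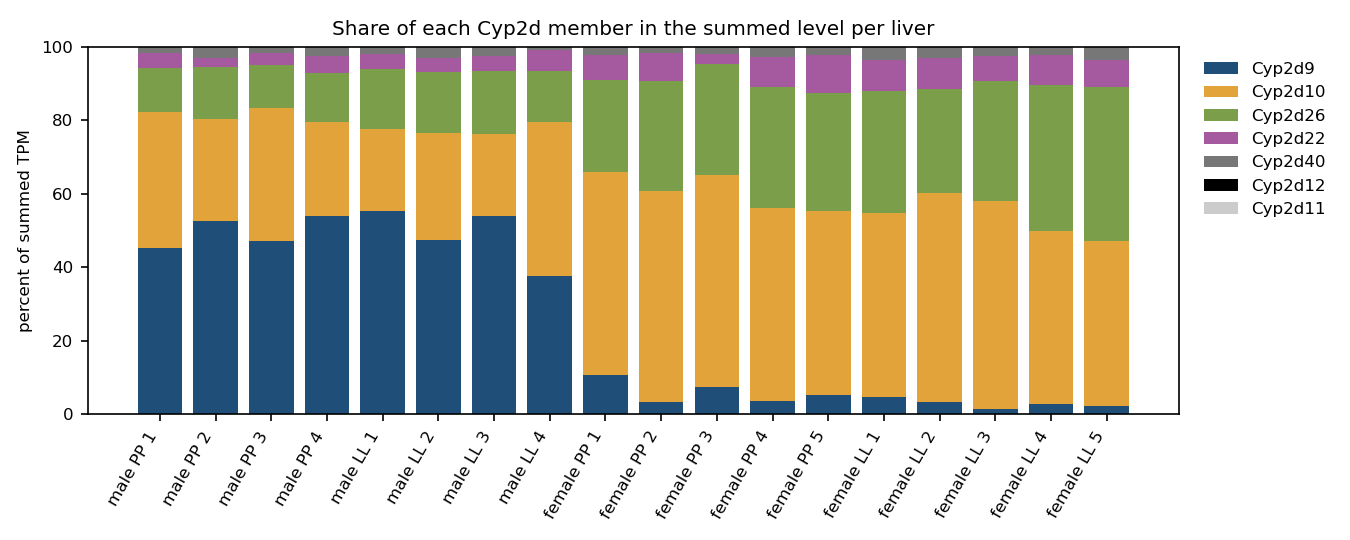
Percentage of the summed TPM of the 7 members held by each member in each liver (stacked bars, 1 per mouse). Cyp2d9 fills 37.5 to 55.2% of the bars of male livers and 1.53 to 10.7% of those of female livers, and Cyp2d11 and Cyp2d12 are too small to be seen.

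The summed level of the 7 members depended on the scale. Summed TPM were 1196 ± 279 in male PP, 1268 ± 203 in male LL, 1191 ± 371 in female PP and 986 ± 110.2 in female LL, and the groups overlapped in all 4 contrasts. Summed normalized counts were 11728 ± 1629 in male PP and 6549 ± 657 in female PP and did not overlap, with 9508 ± 3084 in male LL and 7067 ± 1196 in female LL, which overlapped. The median gene of 5645 with at least 50 mean normalized counts was 0.60 higher in female PP than in male PP on the log2 TPM scale and -0.02 on the normalized count scale, and the same medians were 0.20 and -0.03 between LL sexes, 0.29 and 0.02 between male genotypes, and -0.11 and 0.01 between female genotypes. Relative to that shift, sums in TPM were lower in females, in the direction of the normalized counts. Without Cyp2d9, summed TPM were 599 ± 126 in male PP, 652 ± 134 in male LL, 1115 ± 333 in female PP and 959 ± 115 in female LL, which was 1.86-fold higher in female than male PP and 1.47-fold higher in female than male LL, with no overlap between sexes. In the same way, summed normalized counts were 5696 ± 881 in male PP, 5115 ± 1175 in male LL, 6069 ± 446 in female PP and 6827 ± 1188 in female LL, with overlap in all 4 contrasts.

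Mice varied together in several members beyond their groups. With group means subtracted from log2 normalized counts, Pearson r over the 18 livers was 0.80 between Cyp2d10 and Cyp2d26, 0.75 between Cyp2d22 and Cyp2d26, 0.74 between Cyp2d10 and Cyp2d40 and 0.62 between Cyp2d9 and Cyp2d10. It was -0.03 between Cyp2d9 and Cyp2d22. These are descriptions over livers that share the libraries' depth and fragment length, and close genes also share reads.

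The genes most like each member were sought among 5639 others with at least 50 mean normalized counts. As measured over 18 livers, Cyp2d9 was most like Cyp4a12b (r = 0.97), a fatty acid hydroxylase of male liver, and Mup7 and Mup20 (r = 0.97 each), which code for urinary pheromone carriers. With group means subtracted its nearest genes included the carboxylesterase gene Ces3a (0.87) and the serpin gene Serpina1c (0.80). Cyp2d26 was most like Ech1 (0.95), an enzyme of fatty acid oxidation, Tmbim6 (0.91) and Hyal2 (0.91), and with group means subtracted Hyal2 (0.90), Ccnd3 (0.89) and Pex16 (0.88). Cyp2d10 was nearest to Tspo (0.83), Rnf187 and Sirt3 as measured and to Ech1 (0.90) with group means subtracted, Cyp2d22 to Atad3a (0.79) and Inmt (0.90), and Cyp2d40 to Prpsap1 (0.84) and Clcn7 (0.93).

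Other genes of the locus gave few calls. Of 12 other genes named Cyp2d, 3 were tested, and 1 was called in 1 contrast: Cyp2d13 was higher in female LL than in male LL (log2 fold change 0.51 ± 0.14, adjusted p = 0.0112). It had 1187, 764, 903, 1049 and 1058 normalized counts in female LL and 696, 591, 832 and 664 in male LL, which overlapped. The pseudogene Cyp2d36-ps had a log2 fold change of -1.61 ± 0.58 between PP sexes (adjusted p = 0.0728). Of 30 protein-coding neighbours within 500 kb, 18 were tested and 0 were called by DESeq2 between the sexes, with 2 in PP and 4 in LL mice at an unadjusted p below 0.05, the smallest unadjusted p being 0.00532 for Desi1 between PP sexes (log2 fold change -0.42 ± 0.15, adjusted p = 0.0679).

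**Figure D4:**
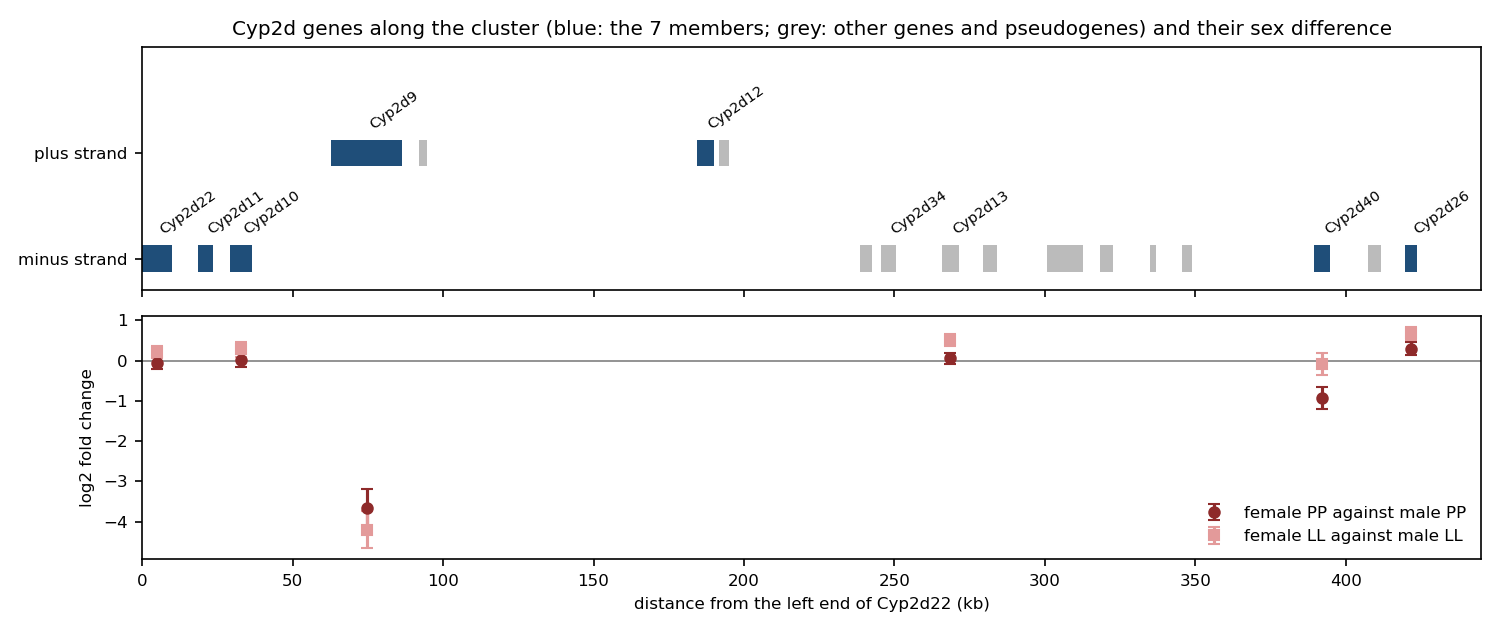
Upper panel, Cyp2d genes by distance in kb from the left end of Cyp2d22 and by strand, with the 7 members in blue and other Cyp2d genes and pseudogenes in grey. Lower panel, log2 fold change with SE of the tested members and Cyp2d13 between sexes at the same positions, where Cyp2d9 stands at -3.65 and -4.20 and the others lie between -0.92 and 0.68.

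Few genes that serve P450 enzymes were called. Of 13 redox partner and haem supply genes, all tested, 0 were called by DESeq2 between PP sexes, where 2 had an unadjusted p below 0.05, and 1 between LL sexes: Alad, an early enzyme of haem synthesis, was higher in female LL (log2 fold change 1.05 ± 0.30, adjusted p = 0.0138). Pgrmc1, a haem-binding partner of P450 enzymes, was higher in female LL than in female PP (0.43 ± 0.11, adjusted p = 0.0164) and was the one gene of the 13 called by genotype, beside 0.658% of all tested genes in that contrast. It had a log2 fold change of -0.36 ± 0.11 in female PP against male PP (adjusted p = 0.0271), within the fold limit. Por, the electron donor, was not called in any contrast.

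Of 20 transcription factors and hormone receptors of liver, all tested, 3 were called between PP sexes. Cux2, a female-predominant repressor, was higher in female PP (log2 fold change 5.49 ± 0.81, adjusted p = 1.23e-09), as was the oestrogen receptor gene Esr1 (1.33 ± 0.31, adjusted p = 0.000542), while Bcl6, a male-predominant repressor, was lower (-2.09 ± 0.62, adjusted p = 0.0147). Between LL sexes 3 were called, all higher in females: Cux2 (5.98 ± 1.11), Nr1i3 (0.93 ± 0.23), a receptor for foreign compounds, and Stat5b (0.65 ± 0.21), which carries the growth hormone signal. Ghr, the growth hormone receptor gene, had a log2 fold change of -0.44 ± 0.12 in female PP (adjusted p = 0.00608), within the fold limit. By genotype DESeq2 called 0 of the 20 in either sex, with 3 in males and 4 in females at an unadjusted p below 0.05.

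Lists of known sex-biased liver genes showed where the cluster stands in the sex contrasts. Of 10 male-biased genes 8 were called lower in female PP, with a median log2 fold change of -4.34, and 9 in female LL (-4.79), and the Cyp2d9 values of -3.65 and -4.20 were of similar size. All 10 female-biased genes were called higher in both contrasts, with medians of 8.95 and 7.76. In male LL against male PP the median of the female-biased list was -0.74 and 7 of 10 had an unadjusted p below 0.05, in both directions. The 2 called were higher, the steroid hydroxylase gene Cyp17a1 (2.24 ± 0.52, adjusted p = 0.00441) and Cyp2a4 (3.21 ± 0.93, adjusted p = 0.0484), while Cyp2b13 (-3.64 ± 1.36) and Cyp2c40 (-1.89 ± 0.71) were below 0 without passing the test (adjusted p = 0.212 each).

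Other P450 subfamilies were counted in the same way. Of 6 tested Cyp2a and Cyp2b genes, 4 were called higher and 1 lower in female PP, of 13 Cyp2c genes 6 higher, and of 6 Cyp3a genes 2 higher. In that contrast 0 of 5 Cyp2d members were called higher and 2 lower, beside 3.68% of all tested genes higher and 2.77% lower. Between LL sexes 4 of 6 Cyp2a and Cyp2b genes were called higher, 6 of 13 Cyp2c genes higher and 1 lower, and 2 of 6 Cyp3a genes higher. There 1 of 5 Cyp2d members was called higher and 1 lower, beside 3.33% of all tested genes higher and 2.79% lower. Whether these counts differ between subfamilies was not tested.

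Markers of other liver cells moved with sex in PP mice. Summed normalized counts of 4 stellate cell markers were 637 to 871 in female PP and 262 to 547 in male PP, with 3 of 4 called higher, and those of 4 endothelial markers 251 to 513 and 125 to 242, with 2 of 4 called. Between LL sexes both ranges overlapped, at 371 to 859 and 457 to 754 for stellate and 186 to 358 and 169 to 230.2 for endothelial markers, with 0 of 4 called in each list. Some other markers did move between LL sexes. Hepatocyte sums were 600712 to 725627 in female LL and 482442 to 578455 in male LL, without overlap. Alb made up most of these sums, with means of 566181 in female LL and 450430 in male LL. The median log2 fold change of the 7 hepatocyte markers was -0.23 in female LL against male LL, with 0 of 7 called. Of 5 Kupffer cell markers 1 (Vsig4) and of 6 pericentral markers 1 (Oat) were called higher in females, and of 5 periportal markers 1 (Cyp2f2) lower. Cyp2d9 was 12.6-fold lower in the PP and 18.3-fold lower in the LL comparison. Hepatocyte marker sums were 711849 to 827508 in female PP and 388092 to 494077 in male PP, with 1 of 7 called higher. The part of cell make-up in the Cyp2d values was not tested.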

How the data were processed

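Liver RNA of 18 mice was sequenced, 1 library per mouse. The authors quantified untrimmed reads with Salmon 1.4.0 (version from the submitters' processing notes) against GENCODE M26 transcripts of GRCm39. The deposited estimated counts per transcript were unscaled, and the TPM deposited by the authors are scaled per length to the same total. Transcripts were joined to genes by GENCODE M39 (137570 of 139225), estimated counts were summed per gene and rounded, and TPM were summed. Reads of near-identical genes were divided between them by Salmon's model, which bears on this cluster. The other deposited columns are transcript lengths.

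DESeq2, the package the study used, here 1.42.0 in R 4.3.3 with its Wald test, was fitted to all 18 libraries with 4 group levels, for the 10938 genes reaching 10 counts in 4 libraries or more. Calls took p below 0.05 after Benjamini-Hochberg adjustment and a ratio of 1.3 or more, or 0.7 or less (no ratio for the interaction). Intervals are 95% Wald intervals. Alternatives were edgeR 4.0.16 quasi-likelihood, limma 3.58.1 on log2(TPM + 1), other scaling, filters and terms, and leaving out each library. The fit was tested on simulated data. Coding sequences were aligned with mafft 7.526.

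All 7 members were described, and up to 4 genes per context list were named by smallest p. Some genes that these rules pick are not reported here. Members and lists were chosen with earlier results of these data known, so planned exact tests of summed levels and shares are not given. Labels give ages of 9 to 14 wk where the series design gives 14 wk. The labels name no sequencing batch.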

Additional observations from a re-analysis of the deposited data

Results flagged for a closer look

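Among 24 sets of values examined for a mouse far from the rest of its group (normalized counts of the 5 tested members and summed TPM of the 7, in 4 groups each), 2 were picked out, and chance alone picks about 1 in 20. Female PP 3 had a summed TPM of 1851, against 983 to 1085 in the other 4 female PP livers. Its summed normalized counts of 7041 lay inside the 5782 to 7279 of the others, and its fragment length of 631 bases was the longest of the 18 libraries, whose part was not tested. Male PP 2 had 525 normalized counts of Cyp2d22, against 734 to 771 in the other 3 male PP livers.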

How the results depend on the processing

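Cyp2d9 was called lower in females in 30 of 30 alternatives in each genotype. Of 5 tested members, 2 were called between PP sexes in the reported fit, 1 with edgeR, with the transcript length offset and with protein-coding transcripts alone, and 4 with limma on log2(TPM + 1). That limma fit called 4307 of all 10938 tested genes, 4223 of them higher in female PP. In that limma fit Cyp2d22 turned from -0.06 to 0.90 (adjusted p = 0.0167), and Cyp2d10 (0.78) and Cyp2d26 (1.20) passed the test, on a scale whose median gene was 0.60 higher in female PP. Leaving out 1 library at a time gave 1 to 2 called members, 1 without female PP 2, male PP 1 or male PP 4, where Cyp2d40 was lost. Between LL sexes 2 were called, and 1 with the length offset, with limma and with the replicate number as a block.

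The log2 ratio of the summed level, given in TPM, moved beyond the spread between mice on other scales in 3 of 4 contrasts. For male LL against male PP it was 0.08, and -0.30 in normalized counts and -0.21 as a percentage of all gene counts. For female LL against female PP it was -0.27, and 0.11 in normalized counts, 0.082 as a percentage and 0.17 in normalized counts without Cyp2d9, a sum chosen after seeing the data. Female PP against male PP gave -0.01 in TPM, -0.84 in normalized counts, -0.49 as a percentage and 0.90 in TPM without Cyp2d9. Female LL against male LL gave -0.36, stayed within that spread in normalized counts (-0.43) and as a percentage (-0.20), and gave 0.56 in TPM and 0.42 in normalized counts without Cyp2d9. The cause was not tested.

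Shares of 0 members did not overlap between male genotypes, but 1, Cyp2d26, did not as a share of estimated counts or of all Cyp2d genes. With 1 library left out the number was 0 to 1 (1 without male LL 4 or male PP 2). Between female genotypes it was 0, and 0 to 1 with 1 library left out (1 without female LL 1 or female LL 4). Between LL sexes 4 shares did not overlap, and 2 with protein-coding transcripts alone.

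Groups share replicate numbers, but deviations of same-numbered mice correlated from -0.28 to 0.19, so the numbers do not pair the mice. With the replicate block, Cyp2d26 between LL sexes had a log2 fold change of 0.58 (adjusted p = 0.243). Shares of 2 members between male and 3 between female genotypes differed in the same direction in every same-numbered pair. The ranges of these shares overlapped, and the 3 include Cyp2d11, which was at or near 0. With 4 or 5 mice a group and at most 6613905 counts a library, Cyp2d11 and Cyp2d12 could not be tested, and the split of reads among close Cyp2d genes limits the others.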
